A study of Homo sapiens with 6 samples.

Results

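The genes that write, read and erase 5-methylcytosine were followed in RNA-seq of 6 samples. They are DNMT1, DNMT3A, DNMT3B, UHRF1, TET1, TET2, TET3, TDG and MBD2, taken by gene name as 9 of the 21494 genes in the deposited count table. All 9 passed edgeR's filter on low counts, which kept 16756 genes. Of the 6 samples, 3 carried a control shRNA (Control sh) and 3 an shRNA that depletes VprBP, the kinase and ubiquitin ligase substrate receptor encoded by DCAF1 (VprBP sh). The study describes the cells of both groups as the human melanoma line G361 with stable knockdown. Its methods give lentiviral infection with polybrene, then puromycin selection lasting 2 weeks. No other treatment is named for these samples. Nothing in the labels says that the 3 samples of a group came from separate cultures, so p-values measure the spread between these samples, which may be technical. In each group replicates 2 and 3 were alike, with a chi-square per degree of freedom of 2.50 (Control sh) and 2.36 (VprBP sh) over genes, and replicate 1 stood apart from both, at 17.6 to 29.1. Values are normalized counts, which are estimated counts per gene divided by a library scale factor from upper quartile scaling. Changes are VprBP sh over Control sh, and a call required both a fold change over 2 and an adjusted p-value below 0.05 (edgeR's quasi-likelihood test, Benjamini-Hochberg adjustment).

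Methylation of cytosine in CpG dinucleotides is copied to new DNA strands by DNMT1, which UHRF1 brings to hemimethylated sites behind the replication fork. DNMT3A and DNMT3B place methyl groups on unmethylated DNA. The TET enzymes oxidize 5-methylcytosine, TDG excises the later oxidation products so that base excision repair can restore cytosine, and MBD2 binds methylated CpG and recruits the NuRD complex. In tumor cells the pattern of methylation is often altered, and genes that methylation keeps silent in most tissues, such as germline genes of the MAGE family, can be expressed.

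Several features of the libraries bear on every value below. Samples held from 18195926 to 26883925 counts. The mitochondrial share of counts was 1.96% to 1.98% among Control sh samples and 4.10% to 4.48% among VprBP sh samples. In the labels the cell line is G361 and the source LD611, and markers of the melanocyte lineage were low in both groups. Of 8 such markers 4 were in the table, with a sum of 8.46 to 9.85 CPM (counts scaled to a common library total) for Control sh and 11.9 to 15.2 for VprBP sh. Most of the melanocyte sum came from MITF, with 154 to 170 counts for Control sh and 197 to 312 for VprBP sh. PMEL had 28 to 38 and 34 to 46 counts, and TYRP1 had 0 to 4 in any sample. Melanocyte markers TYR, DCT, SOX10 and S100B have no row in the table. MLANA had 1 to 2 counts per Control sh sample and 1 to 5 per VprBP sh sample. Of 9 urothelial markers 7 were in the table, with a sum of 4025 to 4675 CPM for Control sh and 1201 to 1358 for VprBP sh. Most of that sum came from the keratins KRT5 (48190 to 73688 counts and 2582 to 4524) and KRT7 (31453 to 36124 and 15710 to 30647). KRT20 and UPK3A have no row, and UPK1A had 0 to 5 counts in any sample. KRT13 had 2740 to 5317 counts and 3 to 9, and UPK2 176 to 220 and 26 to 73. UPK1B had 500 to 709 counts in Control sh and 0 in every VprBP sh sample, while GATA3 had 0 to 7 and 1334 to 1873. Fibroblast markers (4 of 6 in the table) summed to 32.1 to 33.6 and 22.5 to 29.4 CPM, mostly from COL1A1, while COL1A2 (37 to 40 counts against 0 to 1), LUM (20 to 38 against 0) and PDGFRB (13 to 28 against 2 to 6) were lower in VprBP sh. Of 5 leukocyte markers only CD68 was in the table, with 627 to 905 counts against 1 to 6. Across the table, 27 genes held no more than 3 counts in any Control sh sample but 1000 or more in each VprBP sh sample, and for 79 genes it was the reverse. A difference between the cells of the groups and an effect of the shRNA cannot be told apart in these samples, and below, "higher in VprBP sh" refers to the libraries with that label.

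DCAF1, the targeted gene (ENSG00000145041.16, hg38 chr3:51395867-51500015, minus strand), had 789, 961 and 830 normalized counts in Control sh and 753, 502 and 477 in VprBP sh. No VprBP sh sample reached the lowest control, although replicate 1 came close to it. Its log2 fold change was -0.58 (SE 0.17, adjusted p = 0.0125), which is under 2-fold. It lost the threshold with scaling by library size alone, at -0.37 (adjusted p = 0.0851). Relative to the median of all genes tested, the value was -0.66 with either scaling. Without replicate 1 of both groups, chosen after the data were seen, the log2 fold change was -0.87. RBM15B, a protein-coding gene in the table, overlaps the DCAF1 model on the opposite strand. Strand use in counting is not known, so reads of RBM15B could be counted for DCAF1, which was not tested.

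The promoters of 4 members are shown because their transcripts either rose the most or act together in copying methylation. RefSeq gives windows from 250 bases before to 50 bases after a start site (GRCh38.p14). Capitals mark matches to any of 4 letter strings that E2F factors, regulators of replication genes, are known to bind, namely TTCGCGC with TTGGCGC, and TTCCCGC with TTGGCGG, searched on both strands with overlaps allowed. Each is printed 5′ to 3′ on the strand of its gene. The DNMT1 window lies at chr19:10194904-10195203 (minus strand), the UHRF1 window at chr19:4909251-4909550, the TET3 window at chr2:73984660-73984959 and the TET2 window at chr4:105146626-105146925 (all plus strand).
DNMT1: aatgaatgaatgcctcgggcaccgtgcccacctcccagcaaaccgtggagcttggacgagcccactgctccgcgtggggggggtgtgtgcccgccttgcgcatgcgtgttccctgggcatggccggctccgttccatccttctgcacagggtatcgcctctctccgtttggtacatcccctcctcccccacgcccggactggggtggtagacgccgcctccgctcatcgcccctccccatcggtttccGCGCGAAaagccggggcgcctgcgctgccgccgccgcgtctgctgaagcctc
UHRF1: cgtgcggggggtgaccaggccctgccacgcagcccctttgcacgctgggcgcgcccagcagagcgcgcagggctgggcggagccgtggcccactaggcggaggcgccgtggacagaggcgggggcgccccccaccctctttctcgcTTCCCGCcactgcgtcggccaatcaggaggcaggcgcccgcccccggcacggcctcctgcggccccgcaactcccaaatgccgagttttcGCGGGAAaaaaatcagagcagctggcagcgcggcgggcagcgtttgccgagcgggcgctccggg
TET3: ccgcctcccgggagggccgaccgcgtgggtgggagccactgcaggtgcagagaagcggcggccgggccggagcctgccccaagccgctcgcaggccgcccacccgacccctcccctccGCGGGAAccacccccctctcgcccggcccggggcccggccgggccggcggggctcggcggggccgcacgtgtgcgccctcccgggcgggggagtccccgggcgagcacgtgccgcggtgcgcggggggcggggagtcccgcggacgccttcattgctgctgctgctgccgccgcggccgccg
TET2: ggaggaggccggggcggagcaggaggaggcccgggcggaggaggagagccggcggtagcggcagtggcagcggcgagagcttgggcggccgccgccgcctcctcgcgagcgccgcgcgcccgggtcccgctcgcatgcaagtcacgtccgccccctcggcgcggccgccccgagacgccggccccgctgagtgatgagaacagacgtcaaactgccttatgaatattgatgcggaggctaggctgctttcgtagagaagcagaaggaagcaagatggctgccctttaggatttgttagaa
These windows hold 30, 36, 45 and 35 CpG dinucleotides for DNMT1, UHRF1, TET3 and TET2, against a median of 14 over 35116 windows of the same length. TET2 has a further window, chr4:105145625-105145924, at its annotated gene start with 13 CpG dinucleotides, and the one shown was taken as the richer in CpG. UHRF1 windows at chr19:4909894-4910193 and chr19:4910117-4910416 have 40 and 46 CpG dinucleotides, and a TET3 window at chr2:74002442-74002741 has 33. The UHRF1 window shown is thus its poorest in CpG and has the most matches, and the TET3 window shown is the one with a match. A match to any of the strings occurs in 13.8% of all windows and at least 2 matches in 1.94%. Each string contains a CpG, and these shares were not matched for CpG count or for choosing among a gene's windows. They therefore do not say how rare the matches are among such promoters. DNMT1 has TTCGCGC on the opposite strand, starting 2 bases before the start site, and this UHRF1 window has TTCCCGC on both strands. The UHRF1 window at chr19:4909894-4910193 has TTCGCGC, and the one at chr19:4910117-4910416 has no match. TET3 has 1 match to TTCCCGC and TDG 1 to TTGGCGC. Overlapping TET1 windows, 39.9 and 40.1 kb from its annotated start, share 1 match to TTGGCGG. The TET1 window at that start, chr10:68560087-68560386, has none. No window of TET2, DNMT3A, DNMT3B or MBD2 holds these letters, which says nothing of the factors themselves. The only DNMT3B window starts inside the gene, 17.5 kb from its annotated start, and has 3 CpG dinucleotides. The start site of the UHRF1 window shown also lies inside its gene model, 6.42 kb from the annotated start. Those of its other windows lie at 7.06 and 7.29 kb.

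In VprBP sh, DNMT1, TET2 and TET3 were upregulated and DNMT3B was downregulated, so that 4 of the 9 members were called. Among all 16756 genes tested 46.4% were called, 24.5% as higher and 22% as lower, and the members' share is close to that. At any fold change 6 members passed the adjusted p-value, 5 as higher and 1 as lower, where the background was 76.4%, with 40.4% higher and 36% lower. The groups did not overlap for these 6 members, as for 79.5% of all genes tested. The median log2 fold change of the members was 0.36, beside 0.08 for all genes tested, and their median absolute value was 0.46, beside 0.92. For each of the 6, the exact two-sided permutation p of normalized counts was 0.1, the smallest that 3 samples against 3 allow.

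**Figure D1:**
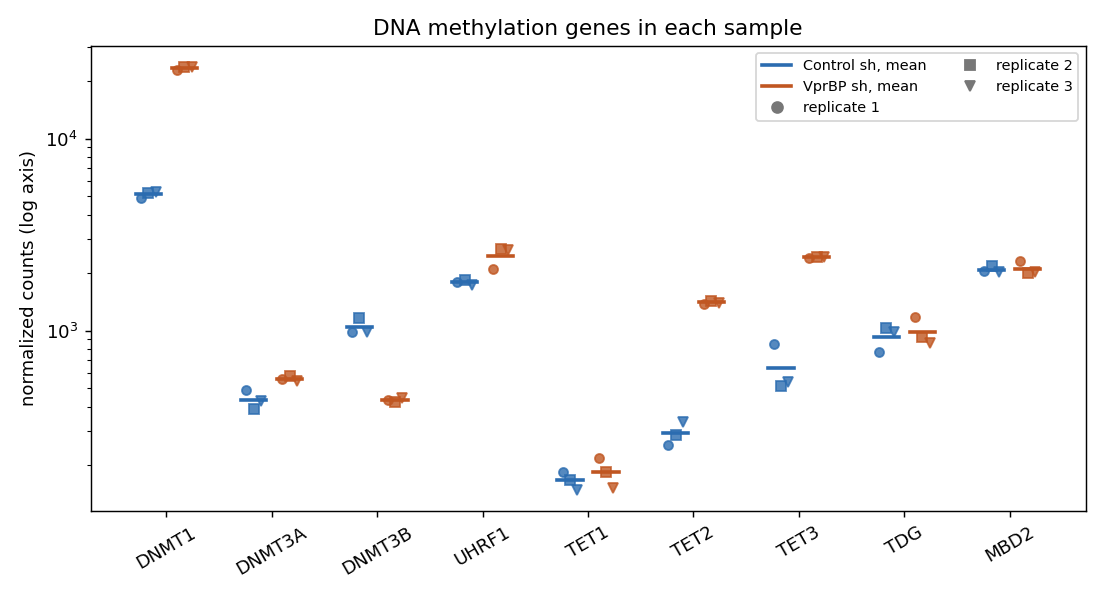
Normalized counts of the 9 members in each sample on a log axis, Control sh in blue and VprBP sh in orange, with marker shapes for replicates and a bar at each group mean. DNMT1, TET2 and TET3 sit higher and DNMT3B lower in all 3 VprBP sh samples, while TET1, TDG and MBD2 overlap between the groups.

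DNMT1, the maintenance methyltransferase, had the most counts and the smallest SE of the members. Its model in the table (ENSG00000130816.17) covers chr19:10133342-10231286 on the minus strand of hg38. It had 4927, 5240 and 5285 normalized counts in Control sh and 22897, 23594 and 23597 in VprBP sh. The groups were far apart, with ranges of 6.95% and 3.00% of their means. Per kilobase of exon its mean level in Control sh, 335 normalized counts, was near those of UHRF1 (347) and MBD2 (365), and in VprBP sh, at 1519, it was above those of UHRF1 (476) and MBD2 (370). With lengths of the longest transcript the levels in Control sh were 720, 414 and 410 for DNMT1, UHRF1 and MBD2, so the nearness holds for exon lengths only. The mean went from 5151 ± 195 to 23363 ± 404 (SD, n = 3), a 4.54-fold rise with a log2 fold change of 2.18 (SE 0.077, adjusted p = 1.13e-08). This gene model reaches 36.3 kb upstream of the RefSeq start site shown above and overlaps S1PR2, a receptor gene on the same strand, so reads could be split between the 2 genes. S1PR2 had 185 ± 5.6 and 869 ± 123 normalized counts, far fewer than DNMT1 in either group.

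UHRF1, which recognizes hemimethylated CpG and recruits DNMT1, moved much less than its partner. The gene (ENSG00000276043.5, chr19:4903080-4962154, plus strand) had 1790, 1829 and 1734 normalized counts in Control sh and 2086, 2648 and 2618 in VprBP sh. VprBP sh replicate 1 lay nearer to the controls than the other two. The log2 fold change was 0.46 (SE 0.10, adjusted p = 0.00247), with a 95% interval from 0.23 to 0.69, below 2-fold. Per kilobase of exon, the level of DNMT1 was 0.921, 0.958 and 1.02 times that of UHRF1 in Control sh and 3.67, 2.98 and 3.02 times in VprBP sh. With lengths of the longest transcript in place of all exons, the mean ratio was 1.74 and 5.80, so its size depends on the length used, while the lengths cancel in the comparison of the groups.

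The de novo methyltransferases differed in direction. DNMT3B (ENSG00000088305.19, chr20:32762385-32809359, plus strand) had 980, 1168 and 983 normalized counts in Control sh and 438, 423 and 444 in VprBP sh. No sample of a group came near the other group, and the gene was 2.40-fold lower in VprBP sh, with a log2 fold change of -1.26 (SE 0.11, adjusted p = 3.51e-06). DNMT3A (ENSG00000119772.19, chr2:25227855-25342590, minus strand) had 491, 391 and 431 normalized counts in Control sh and 557, 580 and 548 in VprBP sh. Its groups did not overlap, but the gap between them was smaller than the range of Control sh. The log2 fold change of DNMT3A was 0.36 (SE 0.11, adjusted p = 0.0162), and it no longer passed with TMM factors (0.26, adjusted p = 0.0653), with DESeq2 (0.24, adjusted p = 0.109) or without VprBP sh replicate 2, Control sh replicate 2 or Control sh replicate 3 (adjusted p = 0.0606, 0.0847 and 0.0583). DNMT3L, the catalytically inactive cofactor of both, has no row in the table.

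Per kilobase of exon, the balance among the methyltransferases was unlike in the groups. DNMT3B stood at 4.0, 5.99 and 4.57 times the level of DNMT3A in Control sh and at 1.57, 1.46 and 1.62 times in VprBP sh. DNMT1 stood at 1.83 ± 0.13 times the sum of DNMT3A and DNMT3B in Control sh and at 14.6 ± 0.27 times in VprBP sh (SD, n = 3). These ratios were not tested and, for DNMT1 over the sum, became 2.53 and 20.6 with lengths of the longest transcript.

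**Figure D2:**
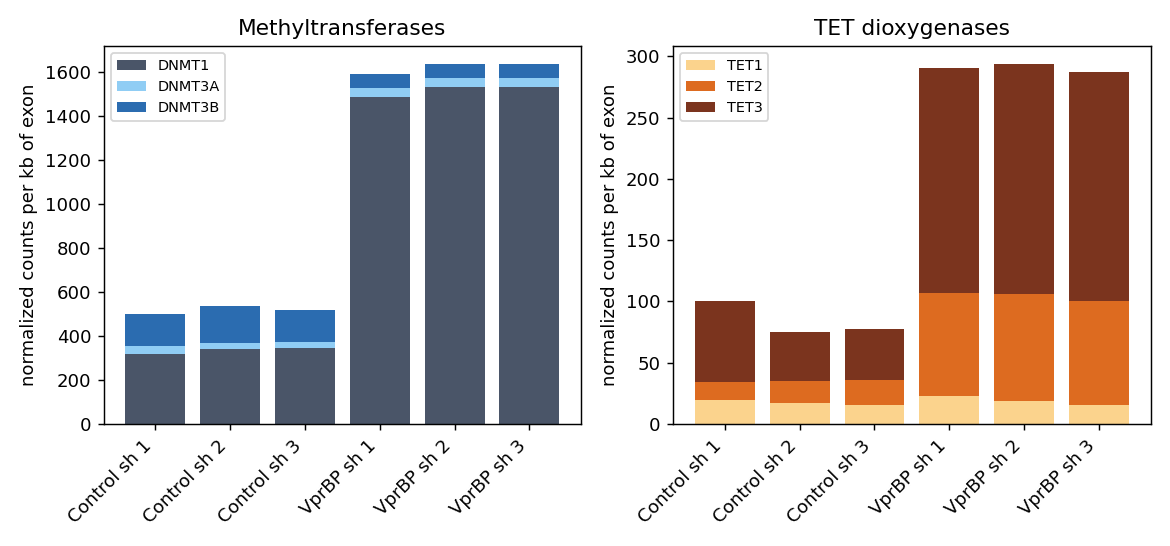
Stacked bars of normalized counts per kilobase of exon in each sample, for DNMT1, DNMT3A and DNMT3B on the left and TET1, TET2 and TET3 on the right. DNMT1 makes up most of the methyltransferase bar in every VprBP sh sample, and the TET bar is taller there, at a mean of 290.5 against 84.2.

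Of the TET dioxygenases, TET2 and TET3 rose and TET1 did not pass the test. TET2 (ENSG00000168769.14, chr4:105145875-105279816, plus strand) had 254, 287 and 335 normalized counts in Control sh and 1384, 1435 and 1395 in VprBP sh. It rose 4.80-fold, with a log2 fold change of 2.26 (SE 0.12, adjusted p = 1.31e-07), which differed from the 2.18 of DNMT1 by less than its SE. TET3 (ENSG00000187605.16, chr2:73984910-74108176, plus strand) had 854, 517 and 540 normalized counts in Control sh and 2379, 2428 and 2418 in VprBP sh. Control sh replicate 1 stood above the other two controls, yet far below every VprBP sh sample. TET3 rose 3.79-fold, with a log2 fold change of 1.92 (SE 0.17, adjusted p = 5.68e-06). Without Control sh replicate 1 the values of TET3 and TET2 were 2.19 and 2.17, and without replicate 1 of both groups 2.20 and 2.18, so their order rests on that sample.
TET1 (ENSG00000138336.9, chr10:68560337-68694487, plus strand) had 184, 167 and 148 normalized counts in Control sh and 218, 183 and 152 in VprBP sh. The groups overlapped, and the log2 fold change was 0.14 (SE 0.17, adjusted p = 0.468) with a 95% interval from -0.25 to 0.54. Per kilobase of exon, TET1 was 20.7% ± 2.2 of the TET sum in Control sh and 6.59% ± 1.2 in VprBP sh, TET2 21.6% ± 5.7 and 29.4% ± 0.38, and TET3 57.6% ± 7.0 and 64.1% ± 0.89 (SD, n = 3). These shares depend on the length used. With lengths of the longest transcript the means were 17.6% and 5.37% for TET1, 29.7% and 38.7% for TET2, and 52.7% and 55.9% for TET3. With either length TET3 was the largest part in all 6 samples. The share of TET1 was lower, and that of TET2 higher, in every VprBP sh sample than in any Control sh sample, while those of TET3 overlapped, and the shares were not tested.

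TDG, the glycosylase that removes 5-formylcytosine and 5-carboxylcytosine, did not pass the test. The gene (ENSG00000139372.15, chr12:103965822-103988874, plus strand) had 770, 1032 and 982 normalized counts in Control sh and 1172, 931 and 863 in VprBP sh. Replicate 1 was the lowest control and the highest VprBP sh sample, and the sign turned with the scaling and with the samples kept. The log2 fold change was 0.09 (SE 0.15, adjusted p = 0.597, 95% interval from -0.24 to 0.42), -0.01 with TMM factors and -0.03 with DESeq2. Without replicate 1 of both groups, a choice made after the data were seen, it was -0.17 (adjusted p = 0.0155).
MBD2, the reader, had 2039, 2179 and 2009 normalized counts in Control sh and 2303, 1989 and 2027 in VprBP sh (ENSG00000134046.12, chr18:54151606-54224669, minus strand). The values overlapped, with a log2 fold change of 0.02 (SE 0.086, adjusted p = 0.835) and a 95% interval from -0.17 to 0.22 that lies within 2-fold. Its sign turned with TMM factors (-0.08) and DESeq2 (-0.10). Pseudogenes of TDG, TET1 and DNMT3A are annotated, and none of them has a row in the table.

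**Figure D3:**
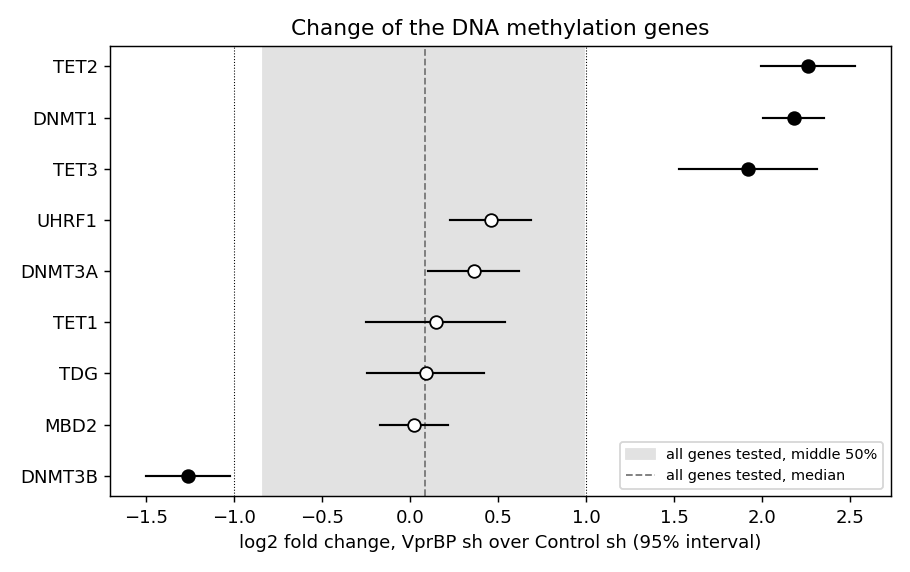
Log2 fold change of each member, VprBP sh over Control sh, with its 95% interval from edgeR. Filled points were called, dotted lines mark 2-fold, the grey band is the middle 50% of all genes tested and the dashed line their median of 0.08, and 5 members lie inside the band with TET2, DNMT1 and TET3 above it and DNMT3B below.

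Genes beside DNMT1 on chromosome 19 rose with it. The genes named in the next 3 paragraphs were chosen after their values were seen. Of the 5 tested protein-coding genes on each side, 8 were called as higher and 2 as lower. Their median log2 fold change was 2.22, close to the 2.18 of DNMT1 itself. PPAN, a ribosome biogenesis factor, went from a mean of 702 to 3238 normalized counts (log2 fold change 2.20, SE 0.092, adjusted p = 3.19e-08). EIF3G, a translation initiation subunit, went from 2118 to 8241 (1.96, SE 0.092, adjusted p = 6.27e-08), and MRPL4, a mitochondrial ribosomal protein, from 1851 to 6884 (1.89, SE 0.10, adjusted p = 1.77e-07). The adhesion receptors ICAM1 and ICAM5 fell, with log2 fold changes of -1.72 and -5.20. PPAN-P2RY11, a readthrough gene with a log2 fold change of 2.87, shares exons with PPAN and P2RY11, so these 3 are not independent, and S1PR2, another of the 8, overlaps the DNMT1 model on the same strand. Of 13635 protein-coding genes with 5 tested neighbours on each side, 2.72% had a neighbour median at least that far from 0.
The shift around DNMT1 weakened with distance. Within 0.25 Mb 14 of 16 genes were called as higher and 2 as lower, and within 1 Mb 33 of 51 as higher and 5 as lower, with a median of 1.75. Within 5 Mb the median was 0.95 and over the whole chromosome 0.52. UHRF1 lies on the same chromosome, and the genes within 5 Mb of it had a median of -0.04.

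DNMT3B also sat among genes that moved in its direction, while TET3 did not. Of the 10 neighbours of DNMT3B on chromosome 20, 5 were called as lower and 1 as higher, with a median of -1.08. COMMD7 had a log2 fold change of -1.83, ASXL1, a chromatin regulator, -1.21, and MAPRE1, a microtubule end-binding protein, -0.94. Within 5 Mb of DNMT3B 38 of 70 genes were called as lower and 4 as higher, and the median of the chromosome was -0.60. Neighbour medians as far from 0 as that of DNMT3B were found for 16.0% of genes. Around TET2, 5 of 10 neighbours were called as higher and 0 as lower (median 1.19, a size reached by 12.9% of genes), among them PPA2, a mitochondrial pyrophosphatase, with 1.71 and NPNT, a matrix protein, with 2.78. CXXC4, whose product binds unmethylated CpG, held 2, 1 and 1 counts as control and 65, 96 and 161 with the VprBP shRNA, at least 30.9-fold higher. Around TET3 the median was 0.13 (a size reached by 86.2% of genes) and 2 of 10 neighbours were called as higher, so its own log2 fold change of 1.92 stood above that of all 10, the highest being 1.48 for ALMS1. Gene copy number was not measured, and its part in these regional shifts was not tested.

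**Figure D4:**
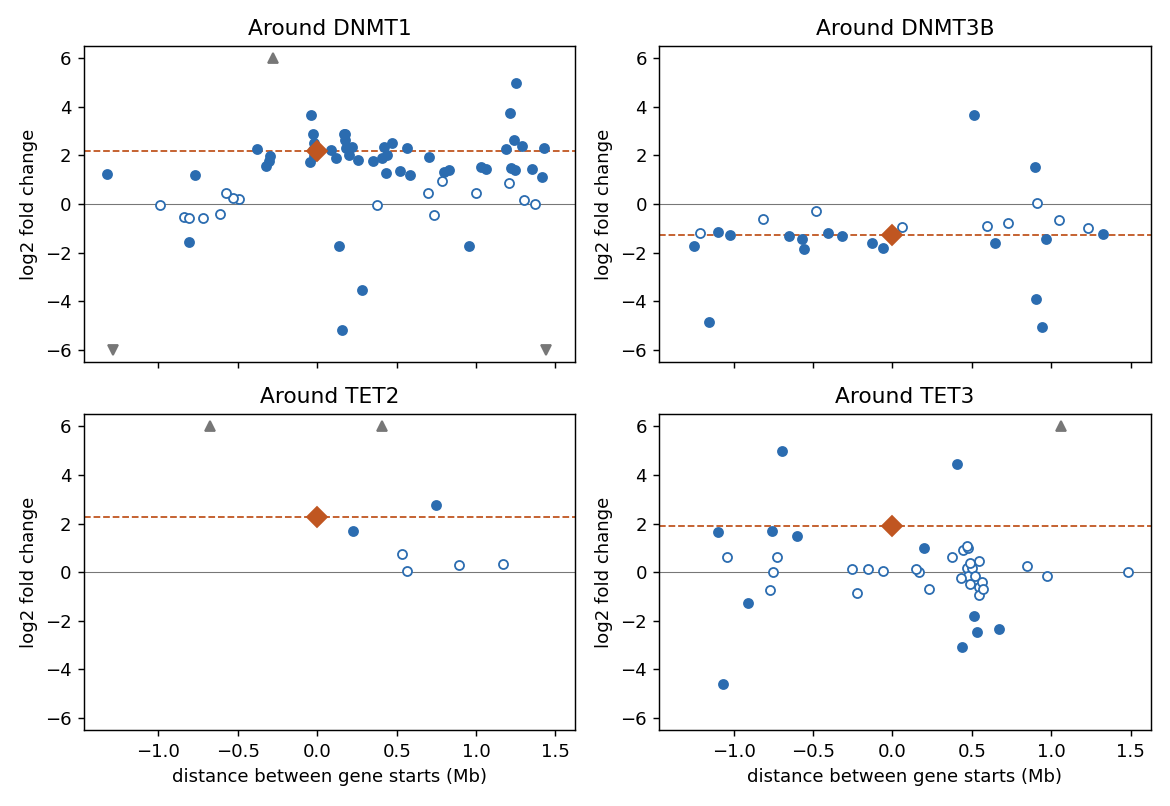
Log2 fold change of tested protein-coding genes within 1.5 Mb of DNMT1, DNMT3B, TET2 and TET3 against the distance between gene starts. The diamond and dashed line are the member, filled points were called, and triangles stand at the edge for genes beyond 6 in either direction. Points near DNMT1 lie mostly around its own value and those near DNMT3B mostly below 0, whereas those near TET3 scatter around 0.

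The pattern most like that of TET2, the member with the largest log2 fold change when all 6 samples are kept, was sought by Pearson's correlation of log2(normalized counts + 1) over the 6 samples. The 5 genes with the highest values were VPS52, RBM14, KCTD18, NBPF12 and MANSC1, with r from 0.99957 to 0.99986. Because the samples fall into 2 tight groups, such values are common, and 1225 of 16755 genes had r over 0.99. The log2 fold changes of these 5 ran from 0.72 for RBM14 to 1.67 for KCTD18.

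The counts of called genes in the lists below stand beside the 46.4% called among all genes tested, 24.5% as higher and 22% as lower, and list medians beside the overall 0.08. Of 8 cofactors of the methyltransferases in the table, 1 was called as higher, NSD1, a histone H3 lysine methyltransferase whose mark guides DNMT3A, with 1946 ± 168 and 4412 ± 351 normalized counts (1.18, SE 0.096, adjusted p = 2.62e-06). The list's median was -0.00. PCNA, the replication clamp, had 6271 ± 1042 and 6057 ± 187 normalized counts (-0.05, SE 0.12, adjusted p = 0.712). Of 12 NuRD subunits, partners of MBD2, 1 was called, MTA3 (676 ± 62 and 1762 ± 40, log2 fold change 1.38, adjusted p = 8.51e-07), and the median was 0.14.

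Base excision repair, which completes demethylation after TDG, had 1 gene called as higher and 1 as lower of 10, beside 46.4% of all genes tested, with a median of -0.12. APEX1, the abasic site endonuclease, rose from 2890 ± 294 to 6024 ± 284 normalized counts (log2 fold change 1.06, SE 0.094, adjusted p = 5.06e-06). NEIL2, a DNA glycosylase, fell from 596 ± 35 to 241 ± 12 (-1.30, SE 0.11, adjusted p = 3.38e-06).
Of 10 genes of methyl donor and 2-oxoglutarate metabolism, 2 were called as higher and 2 as lower, a share close to the 46.4% of all genes tested, with a median of 0.63. IDH2 is an isocitrate dehydrogenase that makes 2-oxoglutarate, a compound that TET enzymes use, within mitochondria. IDH2 had 469, 483 and 538 normalized counts in Control sh and 4306, 5180 and 5176 in VprBP sh. This was a 9.83-fold rise (log2 fold change 3.30, SE 0.11, adjusted p = 7.81e-09), larger than that of any member. Its cytosolic counterpart IDH1 rose 2.11-fold (1.08, SE 0.11, adjusted p = 1.45e-05). AHCY, which clears the methyltransferase product S-adenosylhomocysteine, had 9167, 9889 and 9575 normalized counts in Control sh and 3191, 3439 and 3505 in VprBP sh, 2.82-fold lower (-1.50, SE 0.079, adjusted p = 1.41e-07). MTRR, which reactivates methionine synthase, was 2.08-fold lower (-1.06, SE 0.099, adjusted p = 7.33e-06).

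Genes whose expression is known to depend on DNA methylation were called in shares close to the 46.4% of all genes tested, which also went both ways. Of 30 germline genes 9 were tested, with 1 called as higher, 4 as lower and a median of 0.19. MAGEA10 was read 1256, 1541 and 1822 times in Control sh and 0, 1 and 1 times in VprBP sh, at least 554-fold lower against 3 counts per library. MAGEA4 went from 1331 ± 23 to 48.5 ± 12.7 normalized counts (log2 fold change -4.77, SE 0.16, adjusted p = 9.90e-09). The related MAGEA3, MAGEA6 and MAGEA12 had log2 fold changes of 0.19, 0.76 and 0.71, none of them called. They were named after their values were seen and belong to 1 gene family, whose reads may be shared where sequences are alike. Their sequence identity was not measured.
Of 22 imprinted genes 14 were tested, with 2 called as higher and 5 as lower and a median of -0.78. H19, a long noncoding RNA expressed from the maternal allele, had 8177, 18219 and 18141 normalized counts in Control sh and 643, 182 and 227 in VprBP sh (log2 fold change -5.42, SE 0.52, adjusted p = 8.52e-06). Replicate 1 stood apart in both groups, towards the other group, without closing the gap. SGCE and MEST fell by 1.67 and 1.53 on the log2 scale, and DIRAS3, a RAS-like GTPase, went from 13, 6 and 7 counts to 445, 605 and 838 (log2 fold change 5.98, SE 0.26, adjusted p = 3.85e-08). DNA methylation itself was not measured.

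DNMT1 and UHRF1 are known to follow the cell cycle, and genes of replication and proliferation are given beside them. Of 15 such genes 3 were called as higher and 1 as lower, where 24.5% and 22% of all genes tested were, with a median of 0.34. RRM2, a subunit of ribonucleotide reductase, rose from 1610 ± 206 to 7627 ± 524 normalized counts (log2 fold change 2.24, SE 0.11, adjusted p = 9.39e-08), CCNE1 by 1.97 and CCNE2 by 1.67 on the log2 scale. MCM2, of the replicative helicase, fell from 6495 ± 487 to 1592 ± 180 (-2.03, SE 0.11, adjusted p = 1.35e-07). MKI67, a proliferation marker, had a log2 fold change of -0.73 (SE 0.13, adjusted p = 0.000546), under 2-fold.

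**Figure D5:**
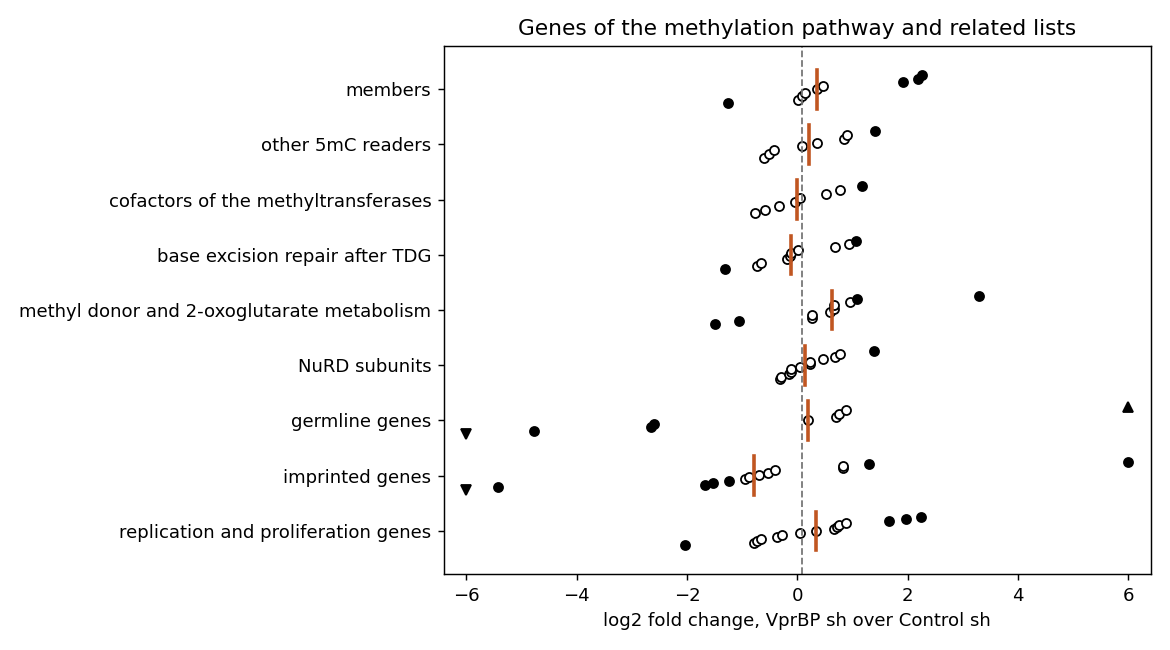
Log2 fold change of each tested gene in the 9 members and 8 related lists, filled where called, with the list median as an orange line, the median of all genes tested as a dashed line and triangles at the edge for genes beyond 6. The lists of the methylation machinery lie mostly within 2-fold, and germline and imprinted genes spread widest.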

How the data were processed

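RNA-seq was analysed for 6 human samples, grouped by their titles into 3 Control sh and 3 VprBP sh. Single-end reads were aligned by the authors with STAR (hg38) and quantified with Partek Flow, and the deposited values are estimated counts for each gene and sample, with no normalization or pooling. Of these values 59.9% are whole numbers (within 1e-06). The design had been written for counts, and the estimated counts were rounded before testing. Strand use in counting is not given in the sources used here, and the labels name a SMARTER kit where the methods name a strand-specific one, so overlapping genes are uncertain.

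The test was edgeR 4.0.16 (R 4.3.3), quasi-likelihood, with upper quartile factors (0.75), its filter on low counts (minimum 10), all 6 samples, no block, and Benjamini-Hochberg adjustment over all genes tested. It was tested on simulated data in which far fewer genes changed than were called here. Unless another tool is named, adjusted p-values come from it. Intervals and floors (3 counts) cover counting error or the spread between samples only. Levels per kilobase used GENCODE exons, and promoters came from RefSeq. Summaries were made in Python 3.11.15 (pandas 2.3.3, numpy 2.4.6).

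The members and lists were chosen with earlier results of these data known. The rule for named genes took DCAF1, all members, MKI67, PCNA and DNMT3L, at most 4 called genes per list with the largest change and a mean in the higher group of 100 normalized counts or more, marker lists as counts, and the 5 genes most correlated with TET2. MAGEA3, MAGEA6, MAGEA12 and neighbouring genes fall outside it and were named after their values were seen. Alternatives were TMM, library size alone, DESeq2 1.42.0, limma-voom (limma 3.58.1), other filters, a replicate block, a test against 2-fold, summed replicates, leaving out each replicate, and transcript lengths. The list of other 5-methylcytosine readers appears in the plot of lists, and its results by gene are not reported here.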

Additional observations from a re-analysis of the deposited data

How the results depend on the processing

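The same 4 members, DNMT1, TET2 and TET3 as higher and DNMT3B as lower, were called in the main setting and in all 16 alternatives, including without replicate 1 of both groups, which was chosen after seeing the data. Leaving out a replicate moved the log2 fold change of DNMT1 between 2.15 and 2.20 and that of DNMT3B between -1.31 and -1.18. TDG was -0.0074 with TMM, -0.031 with DESeq2, -0.032 without Control sh replicate 1, between -0.053 (without VprBP sh replicate 1) and 0.18 when a single replicate was left out, and -0.17 without replicate 1 of both groups. MBD2 was -0.077 with TMM, -0.10 with DESeq2, -0.0010 with no filter, between -0.049 (without VprBP sh replicate 1) and 0.055 when a single replicate was left out, and -0.057 without replicate 1 of both groups. DCAF1 passed 0.05 neither with library size alone (-0.37), nor against a 2-fold change (-0.58), nor with replicates 2 and 3 summed (-0.46). Relative to the median of all genes, DCAF1 was -0.66 both in the main setting and with library size alone. A test against 2-fold cannot pass an estimate under 2-fold, and summing leaves fewer samples per group. The cause was not tested. The number of genes called was 4690 with at least 10 counts in every sample, which leaves fewer genes to test, and 7778 in the main setting. At any fold change, the members past 0.05 were 5 with TMM and DESeq2 and 7 with library size alone. With summed replicates they were 4, as DNMT3A and UHRF1 did not pass. Against a 2-fold change they were also 4, but DNMT3A and UHRF1 could not pass there, since their estimates are under 2-fold.

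Library size alone moved the median of all genes from 0.08 to 0.29, and MBD2 passed there at 0.23 (adjusted p = 0.0363), which relative to that median is -0.06. The share of called genes that were higher was 52.7% in the main setting, 48.8% under TMM, 47.7% under DESeq2 and 60.1% under library size scaling. Same-numbered samples did not deviate together (correlations -0.18, -0.06 and -0.12 over 12112 genes), and with the replicate block 7686 genes and 4 members were called.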

Other observations

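The neighbourhoods of the other 5 members, looked at after the data were seen, are given as values, each with the share of 13635 genes whose neighbour median was at least as far from 0. Around DNMT3A 3 of 10 neighbours were called as lower and 0 as higher, with a median log2 fold change of 0.11 (88.8%). Around UHRF1 3 were lower and 1 higher (median -0.36, 62.1%), around TET1 2 were higher and 0 lower (median 0.26, 72.6%), and around TDG 5 were lower and 1 higher (median -0.72, 33.5%). The neighbours of TDG included HSP90B1, an endoplasmic reticulum chaperone, whose mean fell from 27564 to 8042 normalized counts, and TXNRD1, a thioredoxin reductase, with 11156 and 4169. Around MBD2 4 were lower and 3 higher (median -0.49, 50.9%), over a span of 4.66 Mb. The nearest, POLI and C18orf54, had log2 fold changes of 1.29 and -0.34. SMAD4, a transducer of TGF-beta signals there, had means of 1104 and 3.88 normalized counts in Control sh and VprBP sh, and CCDC68 had 147, 179 and 182 counts against 1, 3 and 2, at least 61.3-fold lower.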
